A study of Homo sapiens with 24 samples.

Results

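Keratin transcripts were examined in 2 oestrogen receptor-negative breast cancer cell lines under CDK4/6 inhibition and fulvestrant. The members were 10 genes out of 59609 named genes in the count table. They were taken by name as keratins of simple, basal and hair-type epithelium, not by a threshold on a measured value. KRT10, KRT15, KRT17, KRT18 and KRT19 encode type I keratins, and KRT7, KRT8, KRT80, KRT81 and KRT86 encode type II keratins.

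Keratins are the intermediate filament proteins of epithelial cells. A type I chain must pair with a type II chain to form a filament, and which chains a cell makes follows its kind of epithelium. KRT8 and KRT18 are the usual pair of simple, single-layered epithelium, to which KRT7 and KRT19 are added in glands and ducts such as those of the breast. KRT15 and KRT17 belong to basal cells, KRT10 is best known from the upper layers of the epidermis, and KRT81 and KRT86 are hair keratins. KRT80 is a filament protein linked to epithelial differentiation.

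MDA-MB-231 is a mesenchymal breast cancer line and was grown in RPMI-1640, and MDA-MB-453 was grown in DMEM, so line and medium cannot be told apart. Each line was treated for 5 days with DMSO, with abemaciclib at 500 nM, an inhibitor of CDK4 and CDK6, with fulvestrant at 5 nM, a degrader of the oestrogen receptor, or with both drugs together, for which the labels do not restate the doses. The 8 groups held 3 libraries each, described as independent biological replicates. QuantSeq libraries count the 3′ ends of mRNAs, and counts here are given raw or as CPM, a gene's count relative to the total of its library, with that total adjusted by the trimmed mean of M values. CPM were not divided by transcript length, so a level is compared between samples and not between genes. In bulk RNA, fewer cells with a transcript and less transcript per cell cannot be told apart.

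Library totals lay between 2873558 and 4158762 counts, so that 3 counts, the limit for a gene at 0, equalled 0.697 to 1.05 CPM in a library. The mitochondrial share of counts moved with abemaciclib in both lines. MDA-MB-231 had 8.69–9.08% without drug and 11.1–13.2% with it, and MDA-MB-453 had 14.8–16.0% and 21.8–25.5%. With mitochondrial genes removed, abemaciclib still gave 2 called keratins in MDA-MB-231 and MDA-MB-453 still gave 3, the numbers found with them. The line labels were checked against marker genes. The summed level of VIM, CD44, AXL, ZEB1 and CAV1 was 2414 to 2804 CPM in the MDA-MB-231 libraries with DMSO, and all 5 were at 0 counts in MDA-MB-453 under DMSO. ERBB2, the receptor HER2, was 233 to 260 CPM in MDA-MB-453 and lay at 14.2 to 18.2 CPM in the other line, and FOXA1, a luminal transcription factor, was 174 to 218 CPM and 1.15 to 4.72 CPM. ESR1, which encodes the oestrogen receptor, had 0 counts under DMSO in both lines, and 5 and 3 counts in MDA-MB-231 under abemaciclib and the combination and 8 in MDA-MB-453 under abemaciclib. Each of these totals came from a single library, at 1.33, 0.759 and 2.41 CPM, and the other libraries of its group had 0. In MDA-MB-453 under the combination ESR1 had 0 counts. Of 7 markers of leukocytes, endothelium and fibroblasts, 5 were at 0 in MDA-MB-453 under DMSO, where the list summed to 34.5–46.0 CPM, and under abemaciclib it summed to 18.7–22.0 CPM. The list summed to 8.56–12.1 CPM in the MDA-MB-231 libraries with DMSO, with 4 markers at 0, and to 10.1–19.3 CPM under abemaciclib. The part of these markers and of the mitochondrial share in the keratin results was not tested beyond the refit without mitochondrial genes.

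Under DMSO, MDA-MB-453 carried more transcript of the simple-epithelial keratins than MDA-MB-231, and less of KRT10, KRT80 and KRT81. KRT19 stood at 99.6, 81.4 and 72.6 CPM in the MDA-MB-231 libraries and at 2013, 1866 and 1979 CPM in those of MDA-MB-453. This was a 23.1-fold difference, with a log2 fold change of 4.53 ± 0.10 (SE, edgeR quasi-likelihood test, adjusted p = 1.7e-37). KRT8 averaged 98.4 ± 4.9 CPM (SD, n = 3) in MDA-MB-231, while MDA-MB-453 had 291 ± 20 CPM. In the same order, KRT18, its type I partner, was 302 ± 4.1 and 801 ± 25 CPM, and KRT7 was 158 ± 12 and 408 ± 27 CPM. All 3 were therefore 2.58- to 2.95-fold higher in MDA-MB-453.

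The reverse order held for 3 other members. KRT10 averaged 149 ± 13 CPM in MDA-MB-231, while MDA-MB-453 had 37.9 ± 4.9 CPM. KRT80 was 32.5 ± 6.5 and 12.3 ± 0.76 CPM, and KRT81 was 40.7 ± 5.6 and 3.26 ± 1.0 CPM. The libraries of the 2 lines did not overlap for any of these 7 genes, and the share of all genes without overlap was not counted. The 6 of them other than KRT81 passed the count filter in each line and were all called at an adjusted p below 0.05 in edgeR, a rule that called 69.8% of all genes tested between the lines. KRT81 passed that filter only through MDA-MB-231, and its level is given as a description. The sum over all keratin genes of the table was 856 to 879 CPM for MDA-MB-231 under DMSO, while MDA-MB-453 had 3395 to 3589 CPM.

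**Figure D1:**
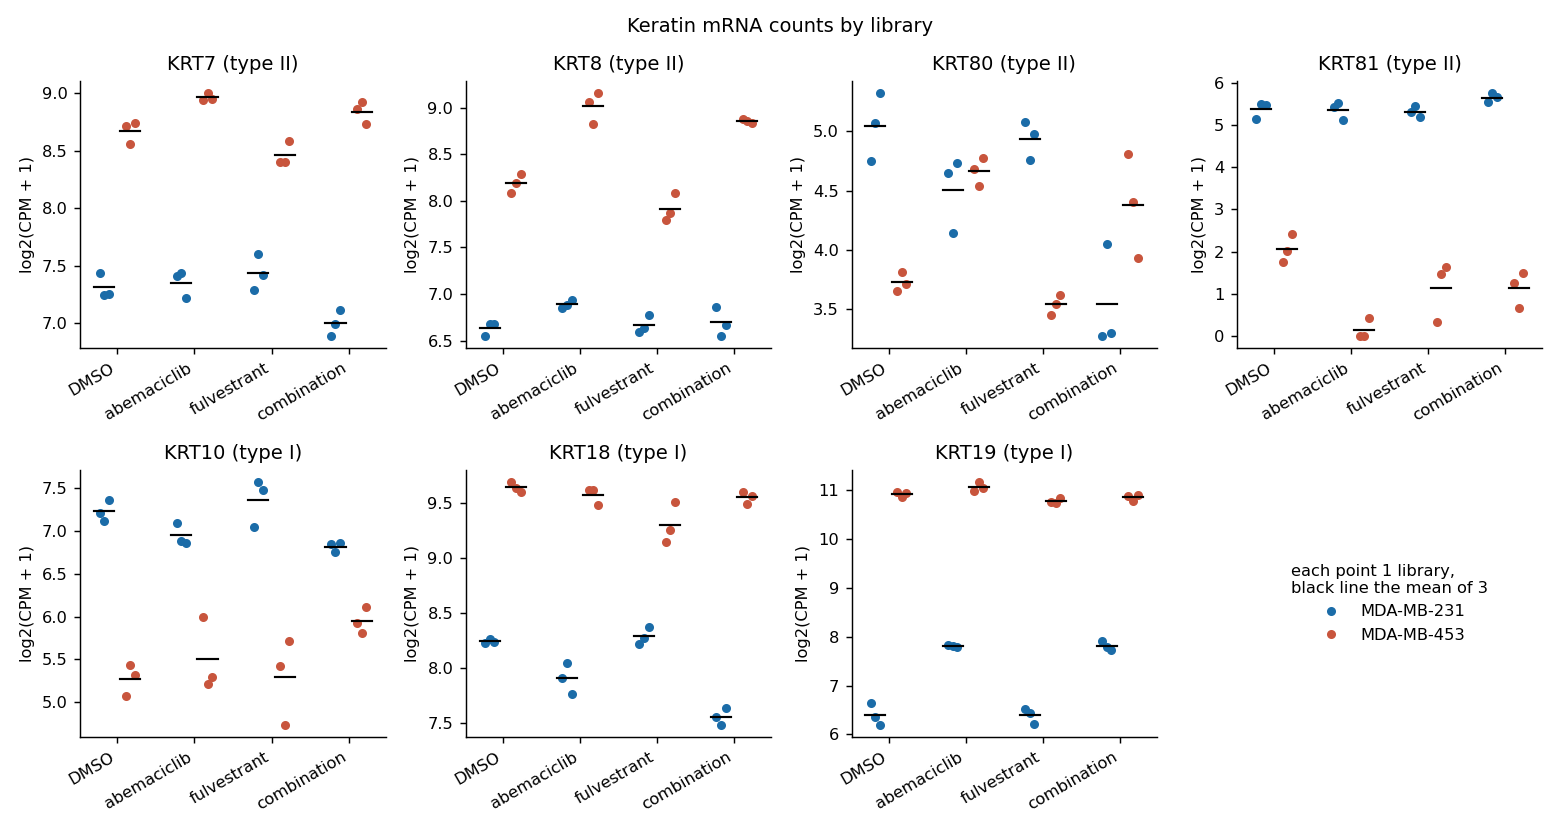
Level of 7 keratins in each of the 24 libraries, as log2(CPM + 1) on the vertical axis of each panel (ranges differ between panels), by treatment on the horizontal axis. Points are libraries, blue for MDA-MB-231 and red for MDA-MB-453, and black lines are means of 3. KRT19 lies between 72.6 and 99.6 CPM in the MDA-MB-231 libraries without abemaciclib and between 211 and 239.5 CPM in those with it, while the MDA-MB-453 libraries stay between 1719 and 2310 CPM.

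In MDA-MB-231, KRT19 rose and KRT18 fell under abemaciclib. KRT19 rose from 99.6, 81.4 and 72.6 CPM under DMSO to 227, 224 and 220 CPM under abemaciclib. The abemaciclib libraries all lay above the DMSO libraries, and the change was 2.65-fold, with a log2 fold change (± SE) of 1.41 ± 0.12 (edgeR adjusted p = 5.1e-13, edgeR). KRT18 fell from 299, 307 and 300 CPM to 239, 264 and 216 CPM, also without overlap, with a log2 fold change of -0.33 ± 0.10 (adjusted p = 0.0065, edgeR). These were 2 of 7 members tested, beside 33.7% of all genes called in the same comparison. The median log2 fold change was -0.01 over the members and 0.00 over all genes.

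The other 5 members did not pass in MDA-MB-231. KRT8 was 92.8, 101 and 101 CPM under DMSO and 114, 117 and 121 CPM under abemaciclib (adjusted p = 0.082, edgeR). KRT10 was 149 ± 13 and 123 ± 11 CPM (adjusted p = 0.065). KRT80 was 26.0, 32.6 and 39.0 CPM and then 24.0, 16.7 and 25.6 CPM, with a log2 fold change of -0.55 ± 0.22 and an adjusted p of 0.051 in edgeR. The groups of KRT80 did not overlap but nearly touched, and KRT80 was called in 3 of 14 alternative fits. Among these, its adjusted p was 0.028 without DMSO replicate 1 and 0.041 without abemaciclib replicate 3. For KRT10 it was 0.042 without abemaciclib replicate 1. KRT7, at 158 ± 12 and 163 ± 13 CPM, had a log2 fold change of 0.04 with a 95% interval from -0.17 to 0.26, and KRT81 one of -0.01 with an interval from -0.33 to 0.31.

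In MDA-MB-453, KRT8, KRT80 and KRT7, the 3 type II members tested, rose under abemaciclib. The other type II members, KRT81 and KRT86, were below the count filter. They had 34 and 15 counts under DMSO and 1 and 5 under abemaciclib. KRT8 rose from 271, 290 and 311 CPM under DMSO to 534, 452.7 and 569 CPM under abemaciclib. The lowest treated library was well above the highest DMSO library, and the log2 fold change was 0.83 ± 0.09 (SE, adjusted p = 2.7e-10, edgeR), or 1.78-fold. KRT80 rose 1.98-fold, from 11.6, 13.1 and 12.2 CPM to 24.6, 22.3 and 26.4 CPM (adjusted p = 0.0016, edgeR). KRT7 rose 1.22-fold, from 408 ± 27 to 499 ± 11 CPM (adjusted p = 0.0062). The KRT7 call was lost without DMSO replicate 2 (adjusted p = 0.070) and with scaling to total counts (adjusted p = 0.058).

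The type I members tested did not pass in MDA-MB-453. KRT18 was 801 ± 25 CPM under DMSO and 762 ± 41 CPM under abemaciclib, with a log2 fold change of -0.08 and a 95% interval from -0.24 to 0.08. KRT19 was 1953 ± 77 and 2146 ± 149 CPM, with a log2 fold change of 0.13 and an interval from -0.01 to 0.27. KRT10 was 62.6 CPM in abemaciclib replicate 1 and 36.1 and 38.2 CPM in the others, against 32.6, 42.3 and 38.8 CPM under DMSO. Its log2 fold change of 0.27 became -0.03 without that replicate. In all, 3 of 6 members tested were called, beside 36% of all genes, with a median log2 fold change of 0.28 over the members and 0.00 over all genes.

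KRT81, a hair keratin of type II, fell below the count filter in MDA-MB-453. It had 8, 11 and 15 counts in the DMSO libraries and 0, 0 and 1 under abemaciclib. Over the summed counts of 34 and 1, the DMSO level was 32.8 times the abemaciclib level, with an exact 95% counting interval from 5.50 to 1332 that covers counting error only. Fulvestrant libraries held 1, 7 and 7 counts and combination libraries 4, 2 and 7. When no filter was applied, KRT81 was called for abemaciclib against DMSO (adjusted p = 0.0014, edgeR) and not for fulvestrant (adjusted p = 0.78) or the combination (adjusted p = 0.35). MDA-MB-231 had 40.7 ± 5.6 CPM under DMSO, while abemaciclib gave 40.4 ± 5.9 CPM.

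The abemaciclib effect differed between the lines for 3 of the 6 members that passed the count filter in each line, beside 20.7% of all genes, in a model of all 24 libraries. For KRT19 the effect in MDA-MB-453 was lower than that in MDA-MB-231 by a log2 difference of -1.27 ± 0.13 (SE, adjusted p = 3.6e-11, edgeR). For KRT80 it was higher by 1.54 ± 0.34 (adjusted p = 0.00054), the estimates having opposite signs in the 2 lines. For KRT8 it was higher by 0.58 ± 0.14 (adjusted p = 0.0022). KRT81 passed the count filter of this model only through MDA-MB-231, so its difference is not reported. KRT7, KRT10 and KRT18 did not pass, with log2 differences of 0.25, 0.56 and 0.26 and 95% intervals from -0.02 to 0.52, from 0.09 to 1.03 and from 0.02 to 0.51, which are not adjusted for the number of genes. Leaving out any 1 library changed none of the 3 calls.

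**Figure D2:**
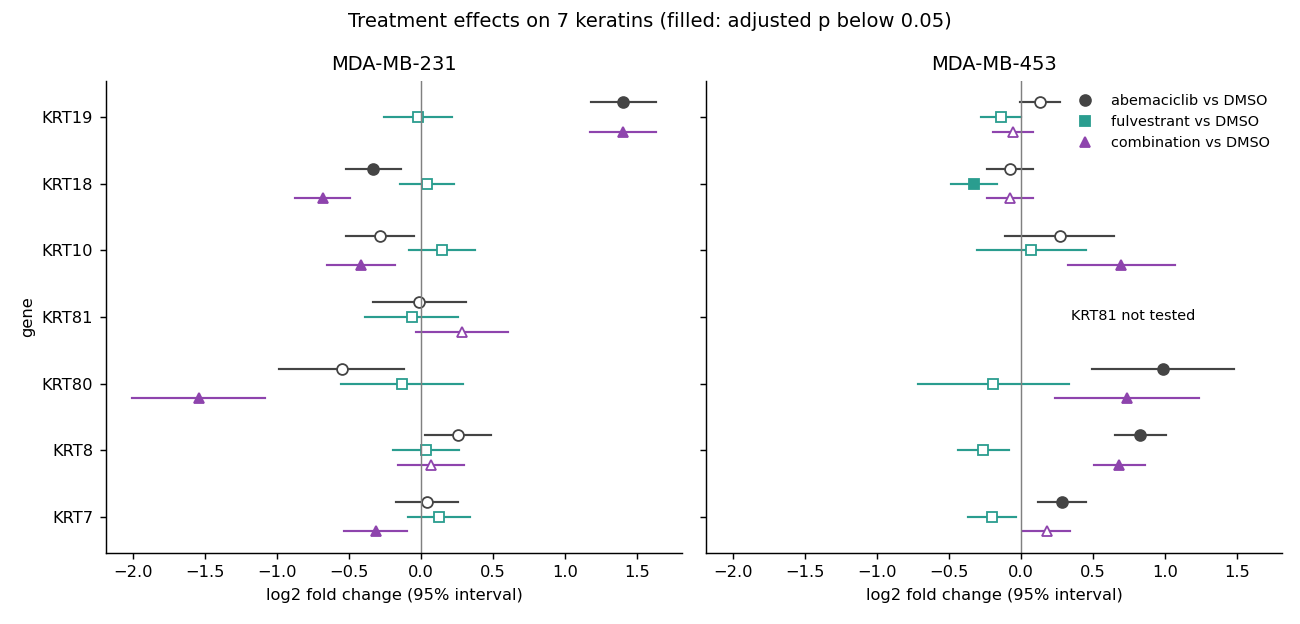
Log2 fold change of 7 keratins against DMSO (horizontal axis, with 95% intervals), one row per gene, in MDA-MB-231 and MDA-MB-453. Circles are abemaciclib, squares fulvestrant and triangles the combination, and filled symbols passed an adjusted p below 0.05. KRT19 stands at 1.41 and 1.40 with abemaciclib and the combination in MDA-MB-231, and with the same treatments KRT80 lies below 0 in MDA-MB-231 but above 0 in MDA-MB-453, where KRT81 was not tested.

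Fulvestrant alone gave 0 called members of 7 in MDA-MB-231, where it called 0% of all genes with edgeR, 799 genes having an unadjusted p under 0.05, and DESeq2 also called 0 members. Without fulvestrant replicate 1, 205 genes were called, and still 0 members. KRT19 was 90.7, 86.2 and 73.1 CPM, within the range of the DMSO libraries. The log2 fold changes of the 7 members ran from -0.13 for KRT80 to 0.15 for KRT10. In MDA-MB-453, KRT18 was the 1 member called of 6, beside 1.41% of all genes. The 156 genes behind that share became 5 without fulvestrant replicate 2 and 786 without fulvestrant replicate 3. It was 828, 796 and 779 CPM under DMSO and 566, 611 and 730 CPM under fulvestrant, 0.80-fold of DMSO with a log2 fold change (± SE) of -0.32 ± 0.08 (edgeR adjusted p = 0.033, edgeR). The groups did not overlap, but the call was lost without any one of the DMSO replicates 1, 2 and 3 or of fulvestrant replicates 1 and 2, with adjusted p from 0.107 to 0.34. It was also lost with only these groups in the fit (adjusted p = 0.064) and with total-count scaling (adjusted p = 0.078). KRT8 was 271, 290 and 311 CPM and then 220, 233 and 270 CPM (adjusted p = 0.15, edgeR; 0.0498 in DESeq2, and 0.011 in edgeR without fulvestrant replicate 3).

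The combination was next compared with DMSO. In MDA-MB-231, 5 of 7 members were called, beside 35.4% of all genes. KRT19 rose to 240, 219 and 211 CPM (log2 fold change 1.40 ± 0.12, adjusted p = 3.8e-13, edgeR). KRT80 fell to 8.7, 15.6 and 8.9 CPM, 0.34-fold of DMSO (log2 fold change -1.54 ± 0.24, adjusted p = 1.2e-06). KRT18 fell to 187, 178 and 198 CPM (log2 fold change -0.68 ± 0.10, adjusted p = 2.7e-07). KRT10 fell to 112 ± 4.2 CPM (adjusted p = 0.0054) and KRT7 to 127 ± 9.9 CPM (adjusted p = 0.023). For these 5 genes the combination and DMSO libraries did not overlap, and the share of all genes without overlap was not counted here either. The call of KRT10 was lost without DMSO replicate 3 (adjusted p = 0.065), and that of KRT7 without DMSO replicate 1 (0.136) or 3 (0.051), without combination replicate 1 (0.119) or 2 (0.060), and with no count filter (0.064). The median over the members was -0.31, and -0.01 over all genes. KRT8 and KRT81 did not pass, with log2 fold changes of 0.07 and 0.29.

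In MDA-MB-453, 3 of 6 members were called for the combination against DMSO, beside 37.6% of all genes, with a median of 0.43 over the members. KRT8 rose to 469, 463.5 and 455.5 CPM (log2 fold change 0.68 ± 0.09, adjusted p = 3.4e-08, edgeR). KRT10 rose to 59.6, 55.1 and 68.0 CPM (0.70 ± 0.19, adjusted p = 0.0028). KRT80 rose to 27.0, 20.2 and 14.3 CPM (0.74 ± 0.26, adjusted p = 0.019), a call lost without DMSO replicate 1 (adjusted p = 0.060) or combination replicate 1 (0.183). All combination libraries of KRT8, KRT10 and KRT80 lay above the DMSO libraries, with the share of all genes that did so not counted. KRT7, KRT18 and KRT19 did not pass, with log2 fold changes of 0.18, -0.08 and -0.06.

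Against abemaciclib alone, the combination gave 0 called members in MDA-MB-231, beside 0.0265% of all genes, and 0 in MDA-MB-453, beside 2.46%. At an unadjusted p under 0.05 these comparisons held 1148 and 1666 genes in edgeR. The genes called for MDA-MB-453, 273 in all, ran from 83 without combination replicate 2 to 518 without abemaciclib replicate 1, and those for MDA-MB-231, 3 in all, reached 96 when abemaciclib replicate 3 was left out and 0 when replicate 1 was. KRT80 in MDA-MB-231 had a log2 fold change of -0.99 with an adjusted p of 0.10 in edgeR, and 0.026 with no count filter. DESeq2 called KRT7 (adjusted p = 0.038) and KRT18 (0.012) in MDA-MB-231 and KRT19 (0.030) in MDA-MB-453. KRT18 also passed in MDA-MB-231 without abemaciclib replicate 3 (adjusted p = 0.035), and KRT10 (0.020) and KRT19 (0.049) passed in MDA-MB-453 without abemaciclib replicate 1. The interaction, which is how far the combined change departs from adding up the changes with each drug given alone, gave 0 called members in both lines, beside 0.124% and 3.8% of all genes, with 1298 and 1748 genes at an unadjusted p under 0.05. On leaving out 1 library the genes called ran from 2 to 449 for the MDA-MB-231 interaction, highest without fulvestrant replicate 1, and from 191 to 873 for that of MDA-MB-453, highest without fulvestrant replicate 3. In MDA-MB-231 the interaction of KRT7 was -0.49 (log2) and that of KRT18 was -0.40, with adjusted p of 0.16 and 0.19 in edgeR and of 0.033 and 0.027 in DESeq2. Without fulvestrant replicate 1 they were 0.020 and 0.048 in edgeR. In MDA-MB-453, KRT18 had an interaction of 0.32 (adjusted p = 0.11), which passed without fulvestrant replicate 3 (adjusted p = 0.0031).

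The combination against fulvestrant gives the effect of abemaciclib again, on a fulvestrant background, between libraries other than those of abemaciclib alone and DMSO. Both comparisons come from 1 model per line and share its count filter, scaling and estimate of the spread. In MDA-MB-231, KRT19 was 90.7, 86.2 and 73.1 CPM under fulvestrant and 240, 219 and 211 CPM under the combination, a log2 fold change (± SE) of 1.43 ± 0.12 (edgeR adjusted p = 2.1e-13, edgeR) beside 1.41 without fulvestrant. KRT18 fell by 0.73 ± 0.10 on the log2 scale (adjusted p = 6.7e-08), beside the fall of 0.33 without fulvestrant. KRT80 fell by 1.41 ± 0.24 (adjusted p = 5.6e-06), KRT10 by 0.56 ± 0.12 (adjusted p = 0.00020) and KRT7 by 0.44 ± 0.11 (adjusted p = 0.0013). These were 5 of 7 members, beside 36.1% of all genes. KRT7, KRT10 and KRT80 did not pass in MDA-MB-231 for abemaciclib alone, and the difference between these effects is the interaction given above, which did not pass for any member.

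In MDA-MB-453, KRT8 rose from 220, 233 and 270 CPM under fulvestrant to 469, 463.5 and 455.5 CPM under the combination (log2 fold change 0.94 ± 0.09, adjusted p = 8.3e-12, edgeR). KRT80 rose from 9.9, 10.7 and 11.3 CPM to 27.0, 20.2 and 14.3 CPM (0.93 ± 0.26, adjusted p = 0.0035). KRT7 rose by 0.38 ± 0.08 (adjusted p = 0.00035), KRT10 by 0.62 ± 0.19 (adjusted p = 0.0070) and KRT18 by 0.25 ± 0.08 (adjusted p = 0.015). The 5 called members of 6 stood beside 36.6% of all genes. The call of KRT18 was lost without fulvestrant replicate 1 (adjusted p = 0.155) or 2 (0.064), without combination replicate 1 (0.078) and with total-count scaling (0.059). That of KRT10 was lost without fulvestrant replicate 2 (0.119) or combination replicate 3 (0.052), and that of KRT80 without combination replicate 1 (0.060). KRT19 did not pass, with a log2 fold change of 0.08 and a 95% interval from -0.06 to 0.22.

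**Figure D3:**
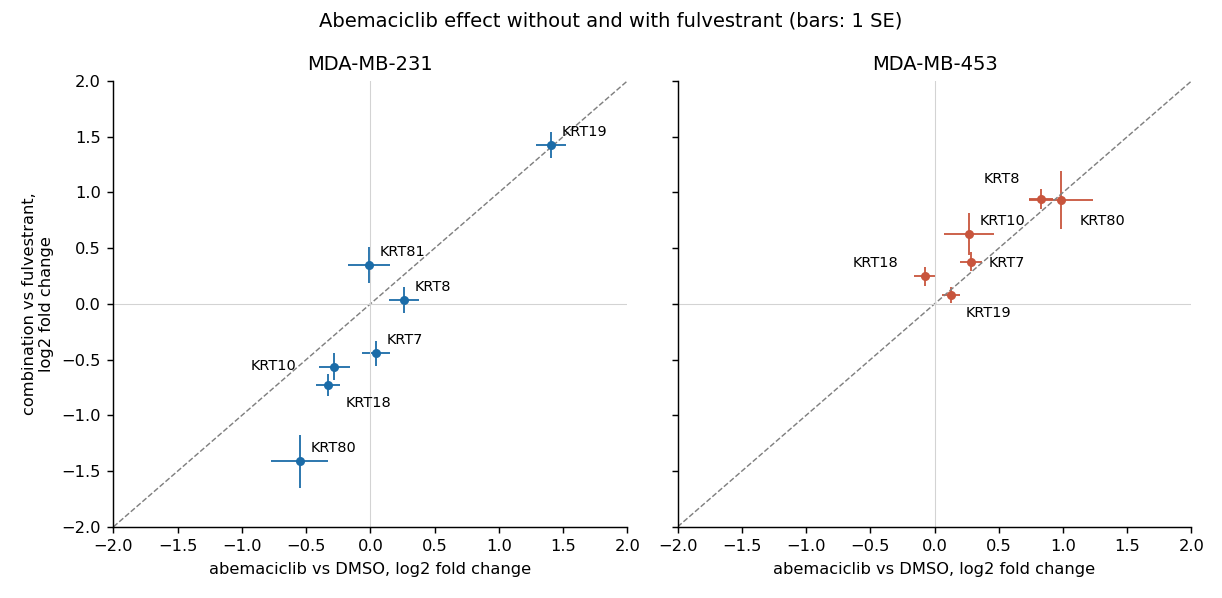
Log2 fold change of each tested keratin for abemaciclib against DMSO (horizontal axis) and for the combination against fulvestrant (vertical axis), which share no libraries, with bars of 1 SE and a dashed line of equality. KRT19 in MDA-MB-231 (1.41 and 1.43) and KRT8 in MDA-MB-453 (0.83 and 0.94) lie near the line, and KRT80 in MDA-MB-231 (-0.55 and -1.41) lies below it.

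The proportion of KRT8 to KRT18 counts was followed because the 2 chains form a pair. The ratio is independent of library scaling, but it compares counts and not molecules. In MDA-MB-231 there were 0.310, 0.331 and 0.338 KRT8 counts per KRT18 count under DMSO and 0.478, 0.443 and 0.561 under abemaciclib. The combination gave 0.616, 0.521 and 0.511, and fulvestrant gave 0.323, 0.320 and 0.328. In MDA-MB-453 the ratio was 0.328, 0.365 and 0.399 under DMSO and 0.677, 0.577 and 0.796 under abemaciclib. The combination gave 0.604, 0.642 and 0.600, and fulvestrant 0.390, 0.381 and 0.370. In both lines every library with abemaciclib lay above every library without it.

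Relative to DMSO, the ratio with abemaciclib was 1.51-fold in MDA-MB-231 and 1.87-fold in MDA-MB-453, and with the combination it was 1.68-fold and 1.70-fold. Each of these 4 differences had an exact two-sided permutation p of 0.1 (0.15 adjusted over 6 comparisons), the smallest that 3 libraries against 3 can give, so none could pass 0.05. Fulvestrant gave ratios 0.99- and 1.05-fold of DMSO, with exact permutation p of 0.9 and 0.6 (adjusted 0.9 and 0.72). Of the pair, KRT18 alone was called for abemaciclib against DMSO in MDA-MB-231, where it fell, while KRT8 alone was called in MDA-MB-453, where it rose. KRT8 in MDA-MB-231 had a log2 fold change of 0.26 (adjusted p = 0.082, edgeR). The difference of the abemaciclib effect between the lines passed for KRT8 (adjusted p = 0.0022, edgeR) and not for KRT18 (adjusted p = 0.14).

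**Figure D4:**
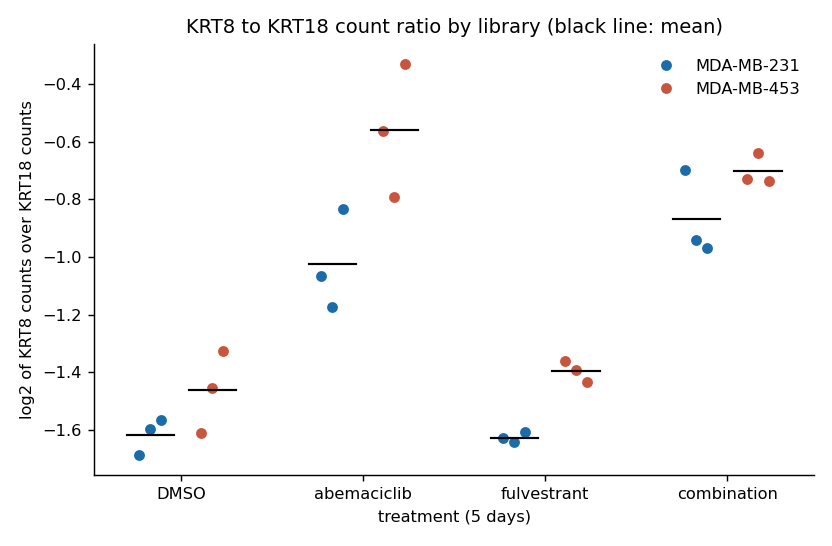
Log2 of KRT8 counts over KRT18 counts (vertical axis, with 0.5 added to each) in each library, by treatment, blue for MDA-MB-231 and red for MDA-MB-453, with black lines for means of 3. Libraries with abemaciclib, alone or combined, lie from -1.17 to -0.33, and the others from -1.69 to -1.33.

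Within the keratin counts of a library, the share of KRT19 in MDA-MB-231 went from 8.32–11.3% under DMSO to 23.3–24.9% under abemaciclib and 25.7–28.8% under the combination. The share of KRT18 went from 34.0–35.8% to 24.5–27.5% and 22.4–24.0%. In MDA-MB-453 the share of KRT19 was 55.0–56.1% under DMSO, 51.4–56.0% under abemaciclib and 50.2–52.5% under the combination. The sum of all keratin counts in MDA-MB-231 was 884 to 961 CPM under abemaciclib and 796 to 832 CPM under the combination, on either side of the 856 to 879 CPM under DMSO. In MDA-MB-453 it was 3925 to 4122 CPM under abemaciclib, above the DMSO range of 3395 to 3589 CPM. The combination gave 3523 to 3704 CPM, which overlapped the DMSO range, and fulvestrant 2915 to 3305 CPM, below that range.

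The basal keratins and KRT86 were at or near the limit of detection. KRT17 had 2 counts over all MDA-MB-231 libraries, while MDA-MB-453 had 1. KRT86 had 22 counts over the MDA-MB-231 libraries, while MDA-MB-453 had 31, never more than 9 in a library. KRT15 had 82 counts in MDA-MB-231, of which 18 fell in DMSO replicate 1 against 1 and 1 in the other DMSO libraries. In MDA-MB-453 KRT15 had 0, 1 and 0 counts under DMSO and 8, 3 and 3 under the combination. None of the 3 genes passed the count filter, and a treatment change in KRT17 or KRT86 was not detectable at this depth. With no filter, KRT15 was lower in MDA-MB-453 than in MDA-MB-231 under DMSO (log2 fold change -3.93, adjusted p = 0.0053, edgeR), a value that rests on the 18 counts of 1 library.

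Of 56 other keratin genes in the table, 19 had a count and 6 averaged at least 1 CPM in a group. KRT5, KRT6A and KRT16, keratins of basal or activated epidermis, had group means up to 3.12, 1.53 and 3.28 CPM in MDA-MB-453, and KRT6C and KRT2 up to 1.15 and 1.51 CPM. KRT34, a hair keratin, reached 1.14 CPM in MDA-MB-231 under fulvestrant. KRT5, KRT6A, KRT6C and KRT2 were at 0 in all MDA-MB-231 groups.

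Reads of near-copies could move between rows. The 67 KRT18 pseudogenes of the table together held 5.07% as many counts as KRT18 for MDA-MB-231, while MDA-MB-453 had 5.22%, most of them in KRT18P8. The 51 KRT8 pseudogenes held 0.460% and 0.238% as many counts as KRT8, so by these counts the KRT18 level carries the larger uncertainty. By sequence the order was the other way. Of 401 words of 100 bases in the last 500 bases, 5 for KRT8 and 0 for KRT18 occurred in a transcript of another gene. With pseudogene counts added to their parents and KRT81 pooled with KRT86, all members called for abemaciclib against DMSO were called again. In GENCODE v44 on GRCh38, KRT8 (chr12:52897187-52949954, minus strand) and KRT18 (chr12:52948871-52952906, plus strand) overlap by 525 exonic bases, none of them in the last 500 bases of either canonical transcript. KRT7 (chr12:52232520-52252186, plus strand) shares 134 of its last 500 bases with exons of KRT7-AS on the other strand, which had 0 counts. KRT81 (chr12:52285913-52291534, minus strand) lies inside the span of KRT86 (chr12:52249300-52309163, plus strand), and no 100-base word of their last 500 bases occurred in a transcript of another gene. KRT80 lies at chr12:52168996-52192014, KRT19 at chr17:41523617-41528308, KRT10 at chr17:40818117-40822614, KRT15 at chr17:41513745-41522529 and KRT17 at chr17:41619442-41624842, all on the minus strand.

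Genes that work with keratins were counted in 4 lists. Desmosomes and plakins anchor keratin filaments to the membrane. In MDA-MB-231, 7 of 11 tested genes of this list rose with abemaciclib and 1 fell, beside 33.7% of all genes called in either direction, with a median log2 fold change of 0.86 against 0.00 over all genes. JUP, the junction protein plakoglobin, rose from 4.99 to 22.1 CPM (log2 fold change 2.14 ± 0.31, adjusted p = 4.9e-07, edgeR). The others that rose were DSP, DSG2, DSC2, PLEC, DST and PERP, and PKP4 fell. In MDA-MB-453, PLEC, JUP and PERP rose and PKP1 and TRIM29 fell among 14 tested. TRIM29 is in the list but is neither a desmosome protein nor a plakin. The called share of 5 in 14 is close to the 36% of all genes called there, with a median of 0.27. PLEC, the linker plectin, rose by a log2 fold change of 0.58 ± 0.12 (adjusted p = 0.00021). Genes outside the rule for names are named here after their values were seen, because the counts are small. Fulvestrant alone gave 0 called genes in these 4 lists in both lines (edgeR). The shares over all genes were 0% (MDA-MB-231) and 1.41% (MDA-MB-453), so 0 calls do not set these lists apart.

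Among 4 non-keratin intermediate filaments tested in MDA-MB-231, VIM and NES rose, beside 33.7% of all genes called in either direction. SYNC went from 0.985 CPM under DMSO to 5.19 CPM under abemaciclib. It passed the count filter only through libraries with abemaciclib, so its level is given as a description. In MDA-MB-453, NES and SYNM fell of 2 tested, beside 36% of all genes, with a median of -0.81. NES, which encodes nestin, had a log2 fold change of 0.78 ± 0.23 (adjusted p = 0.0058, edgeR) in MDA-MB-231, and SYNM, synemin, one of -1.03 ± 0.35 (adjusted p = 0.018) in MDA-MB-453. Among epithelial transcription factors, TFAP2C alone was called of 6 tested in MDA-MB-231, a share below the 33.7% of all genes. It rose by a log2 fold change of 1.14 ± 0.29 (adjusted p = 0.0016, edgeR), and the list median was 0.48. In MDA-MB-453, ELF3, EHF, TFAP2A and GATA3 rose of 15 tested, and ESRP1 and ESRP2, splicing regulators that the list also holds, fell. With ESRP1 and ESRP2 included, the called share was again close to the 36% of all genes, with a median of -0.08. ELF3 changed by 0.47 ± 0.12 (adjusted p = 0.0011, edgeR). Of the cornified envelope list, CNFN rose (1.02 ± 0.29, adjusted p = 0.0050, edgeR) as the 1 gene tested in MDA-MB-231. S100A9 fell of 2 tested in MDA-MB-453, with a median of -1.52. The filament and cornified lists are too small for a share to be compared with the 33.7% and 36% of all genes.

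For CDH1, the E-cadherin of epithelial junctions, MDA-MB-231 had 10.3 ± 1.2 CPM without drug, while abemaciclib gave 9.59 ± 4.0 CPM. In MDA-MB-453 it was 9.92 ± 2.7 CPM under DMSO, 14.8 ± 3.2 under abemaciclib and 25.6 ± 1.6 under the combination.

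For members averaging at least 10 CPM in a line, the non-keratin gene with the most similar profile was found by Pearson's r of log2(CPM + 1) over the 12 libraries of that line, among 7971 genes for MDA-MB-231, while MDA-MB-453 had 7985. The libraries share treatment groups, and the values are descriptions. In MDA-MB-231, KRT19 was most like S100A10 (r = 0.990), KRT10 most like RPL15P3 (0.988) and KRT18 most like PSRC1 (0.978). KRT80 was most like POLR2H (0.949), KRT7 like RHOA (0.946), KRT81 like TRIM65 (0.936) and KRT8 like SLC35B2 (0.882). In MDA-MB-453, KRT8 was most like CD59 (0.988), KRT7 like HID1 (0.962) and KRT80 like PDIA4 (0.953). KRT19 was most like GRINA (0.930) and KRT10 like FBXO31 (0.909).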

How the data were processed

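Per the labels and the study's methods, the authors made QuantSeq forward 3′ RNA-seq libraries, trimmed reads, aligned them to hg38 with STAR and counted them on GENCODE v35 with featureCounts. The deposited table holds raw counts. Strand setting, multi-mapping and duplicate handling are not given in the sources used here. The exact interval of the KRT81 ratio covers counting error only. The 1 row that names no gene holds 0 counts.

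Counts were tested with edgeR 4.0.16 in R 4.3.3: filterByExpr, TMM scaling, quasi-likelihood tests within each line (12 libraries) or over 24, and Benjamini-Hochberg adjustment over all genes tested, 2-sided, called below 0.05. The other 95% intervals are estimates ± normal quantiles of the SE, unadjusted. Replicates of a group were not copies of each other (chi-square per gene 2.64 to 8.65 in 24 pairs). The code was tested on simulated data. Alternatives were DESeq2 1.42.0, other scalings and filters, fewer groups, omitted libraries, pooled near-copies and a replicate block. Same-numbered libraries did not deviate together.

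Members and gene lists were chosen with earlier results of these data known. All 10 members are named, other keratins from 1 CPM in a group, from each list described the called gene with the largest abemaciclib effect of at least 10 CPM, and the most similar gene per member. Some marker, list and similarity results are not reported here.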

Additional observations from a re-analysis of the deposited data

Results flagged for a closer look

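The effect of abemaciclib on 3 keratins differed between the lines by a test of the difference itself, coded as MDA-MB-453 minus MDA-MB-231 on the log2 scale. The difference was -1.27 for KRT19, 1.54 for KRT80 and 0.58 for KRT8 (edgeR, adjusted p from 3.6e-11 to 0.0022). Line and culture medium cannot be told apart in these differences.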

How the results depend on the processing

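Over 1395 values from the alternatives for 92 fitted changes of members, 1312 kept their direction and their side of the threshold, 24 lost a call, 19 gained one and 40 changed sign, all of the last among changes that were not called. The number of called keratins moved with DESeq2 to 2 for the combination against abemaciclib and 2 for the interaction in MDA-MB-231, while for MDA-MB-453 it moved to 2 for fulvestrant and 1 for the combination against abemaciclib. It moved to 1 with no count filter for the combination against abemaciclib in MDA-MB-231, while fulvestrant in MDA-MB-453 gave 0 with total-count scaling, added after seeing the data, and with only the groups compared. The cause was not tested. Smaller moves of a count are left out here. For abemaciclib against DMSO they came from KRT80 and KRT10 in MDA-MB-231 and from KRT7 in MDA-MB-453. Leaving out 1 library gave 3 to 5 called keratins for the combination against DMSO, 0 to 1 against abemaciclib and 0 to 2 for the interaction in MDA-MB-231. In MDA-MB-453 it gave 0 to 2 for fulvestrant, 0 to 2 for the combination against abemaciclib, 3 to 5 against fulvestrant and 0 to 2 for the interaction.

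Sign changes on leaving out 1 library gave these log2 ranges. In MDA-MB-231 with abemaciclib, KRT81 ran from -0.12 to 0.1. With fulvestrant, KRT8 ran from -0.01 to 0.07, KRT19 from -0.11 to 0.11, KRT80 from -0.27 to 0.03 and KRT81 from -0.17 to 0.01. KRT8 ran from -0.02 to 0.14 for the combination against DMSO and from -0.06 to 0.1 against fulvestrant. KRT19 ran from -0.05 to 0.04 for the combination against abemaciclib and from -0.12 to 0.12 for the interaction. In MDA-MB-453, KRT10 ran from -0.03 to 0.41 with abemaciclib and from -0.14 to 0.31 with fulvestrant, KRT18 from -0.04 to 0.03 for the combination against abemaciclib, KRT19 from -0.1 to 0 and KRT80 from -0.3 to 0.16 for the interaction. The KRT8 to KRT18 log2 ratio under fulvestrant ran from -0.04 to 0.02 and from -0.01 to 0.14. Other settings turned the sign at 0 to 0.01 for KRT81 with abemaciclib and 0 to 0.02 for KRT19 with the combination against abemaciclib in MDA-MB-231, while MDA-MB-453 had 0 and 0.09 for KRT18 in the latter comparison.

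Replicate numbers did not pair the libraries, with correlations of same-numbered deviations from -0.19 to 0.058. With a replicate block, abemaciclib had 2 called keratins in MDA-MB-231, while MDA-MB-453 had 3, and no member's call changed, and the paired KRT8 to KRT18 differences were 0.59 and 0.9. It moved the interaction calls over all genes in MDA-MB-231 from 14 to 6. Over all genes, DESeq2 called 75 for the combination against abemaciclib and 127 for the interaction in MDA-MB-231, against 3 and 14 with edgeR, and 334 for fulvestrant in MDA-MB-453, against 156. Without a count filter, fulvestrant called 14 genes in MDA-MB-231, and the other counts above became 49, 132 and 269. Depth limits the members below the count filter.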
